A study of Mus musculus with 12 samples.

Results

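The genes described here encode serotonin receptors: Htr1a, Htr1b, Htr1f, Htr2a, Htr2c, Htr3a, Htr4, Htr5a, Htr6 and Htr7. They were chosen by symbol, and all 10 of the 10 symbols were found among the 19268 genes of the table. The libraries came from the forebrain, without the olfactory bulb, of male C57BL/6J mice. The mice were wild-type (WT) or carried on both chromosomes a Shank3 gene without some internal exons. Shank3 is a scaffold protein of excitatory synapses, and these mutants are called knock-out (KO). Mice were juvenile at postnatal day 25 (P25) or adult at postnatal day 60 (P60), which gave the groups P25-WT, P25-KO, P60-WT and P60-KO with 3 mice and 3 libraries each. No restriction of the deletion to a cell type or tissue is stated for this line.

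Serotonin is made by raphe neurons of the brainstem, whose axons reach the whole forebrain, so forebrain tissue holds receptors for a transmitter that is made mostly outside it. The receptors of the Htr1 and Htr5 families couple to inhibitory Gi and Go proteins, which lower cyclic AMP and open inwardly rectifying potassium channels. The Htr2 family couples to Gq and phospholipase C, which release calcium from internal stores. Htr4, Htr6 and Htr7 couple to Gs and raise cyclic AMP, and Htr3a forms a cation channel.

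Values are normalized counts, that is, estimated counts that the authors had scaled for library size and for differences between libraries in a gene's average transcript length. That scaling does not divide a gene's value by its length, so longer transcripts still give higher values. Library totals were from 30568259 to 32348554, and every receptor gene of the set had a value above 0 in every library. Shank3, the targeted gene, had 10779 ± 786 normalized counts in P25-WT mice, 5174 ± 481 in P25-KO mice, 9796 ± 749 in P60-WT mice and 4914 ± 339 in P60-KO mice (SD, n = 3 each). All 10 forebrain markers were in the table, among them Slc17a7 from 29802 to 39257 and Tbr1 from 2465 to 3088 normalized counts over the 12 libraries. Markers of the hindbrain and raphe were lower than those of the forebrain but not absent, with 9 of 10 in the table. Their summed levels were from 286 to 1206 per library, against 45477 to 56235 for the forebrain markers. Tph2 among them ranged from 110.1 to 266 normalized counts, where the receptor gene Htr3a ranged from 131 to 194.

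Levels of different receptors were compared per kilobase of the mean length of each gene's protein-coding transcripts. On this scale Htr2c, a Gq-coupled receptor whose RNA is edited and which is abundant in the choroid plexus, was the highest, with 549 ± 40.3 normalized counts per kilobase (SD over the 12 libraries). Htr1b, an autoreceptor and heteroreceptor of axon terminals, followed at 214 ± 44.3. Htr2a, the cortical receptor through which classical hallucinogens act, was at 165 ± 13.5.

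In the middle of the order, Htr7 was at 152 ± 15.1, Htr1a at 144 ± 15.4 and Htr5a at 108 ± 7.06 normalized counts per kilobase. Htr6, a receptor enriched in the striatum, was at 87.0 ± 11.9, and Htr3a, found in interneurons, was at 77.9 ± 12.5. Htr4 was at 59.3 ± 15.7 and Htr1f was lowest at 25.3 ± 5.13. The ranges over libraries were apart only between Htr2c and Htr1b and between Htr4 and Htr1f, and all other neighbours in the order overlapped. The order was the same in P25-WT, P25-KO and P60-WT mice, while in P60-KO mice Htr4 stood above Htr3a. The P60-KO libraries had 139, 115 and 211 normalized counts of Htr4, so that mean leaned on replicate 3. With the merged length of all exons in place of mean transcript length, Htr2c was still first at 222 normalized counts per kilobase, and Htr1b moved from the second to the fourth place at 136. On that scale Htr4 was at 25.7 and overlapped Htr1f at 25.3, while Htr5a and Htr3a, and Htr6 and Htr4, were apart.

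**Figure D1:**
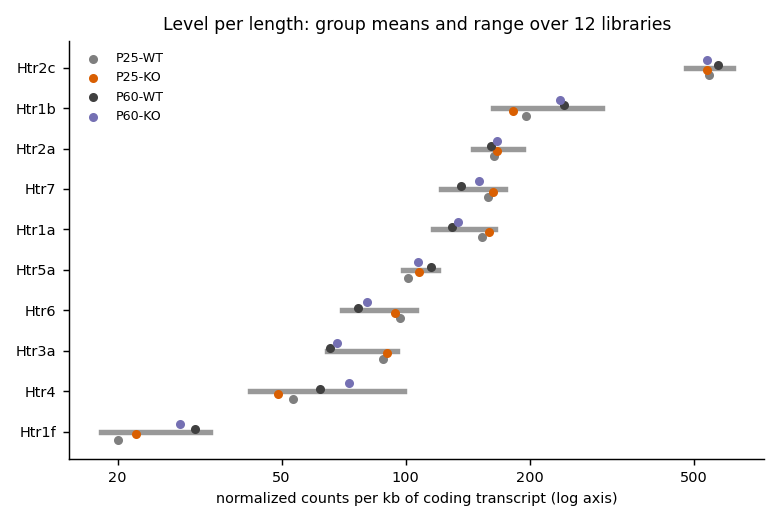
Normalized counts per kilobase of mean coding transcript length (log axis) for the 10 receptor genes, with points for the means of the groups, coloured by group, and grey bars for the range over the 12 libraries. On this length scale Htr2c (480 to 623) lies above and Htr1f (18.2 to 33.5) below the ranges of all the others, and neighbours between them overlap; with merged exon length Htr1f overlaps Htr4.

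The sequences shown here are the promoters of the receptor genes that passed the test between ages described below, because they lie at the genes whose level moved. Promoters from RefSeq (GRCm38.p6) were matched for 8 of the 10 genes. Only bases upstream of any annotated exon are printed, 5′ to 3′ on the strand of the gene, with matches to a searched motif in capitals. The positions are chr13:105443443-105443638 on the plus strand for Htr1a, chr9:81633833-81634082 on the minus strand for Htr1b, chr16:65105855-65106034 on the minus strand for Htr1f and chr4:139075571-139075820 on the minus strand for Htr6.
Htr1a: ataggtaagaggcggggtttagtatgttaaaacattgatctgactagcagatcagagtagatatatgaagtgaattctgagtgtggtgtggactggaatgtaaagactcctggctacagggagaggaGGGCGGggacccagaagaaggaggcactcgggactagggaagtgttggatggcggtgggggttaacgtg
Htr1b: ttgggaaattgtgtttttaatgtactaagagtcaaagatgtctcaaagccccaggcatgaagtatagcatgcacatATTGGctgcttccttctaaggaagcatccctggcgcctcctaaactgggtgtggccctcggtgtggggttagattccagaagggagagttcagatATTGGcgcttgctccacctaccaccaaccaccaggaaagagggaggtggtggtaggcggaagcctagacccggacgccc
Htr1f: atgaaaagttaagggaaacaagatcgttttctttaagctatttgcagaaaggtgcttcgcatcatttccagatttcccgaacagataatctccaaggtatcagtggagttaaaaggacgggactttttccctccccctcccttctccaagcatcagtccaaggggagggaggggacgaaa
Htr6: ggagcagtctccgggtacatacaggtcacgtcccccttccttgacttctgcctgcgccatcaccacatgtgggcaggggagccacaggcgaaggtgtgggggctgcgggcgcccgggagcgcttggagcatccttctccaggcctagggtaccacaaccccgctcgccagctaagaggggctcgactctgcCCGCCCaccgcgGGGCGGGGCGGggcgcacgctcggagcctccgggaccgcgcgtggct

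Searched on both strands were the GC box GGGCGG, the TATA box TATAAA, the cyclic AMP response element TGACGTCA and the CCAAT box. The Htr6 stretch held 3 GC boxes, of which a pair share a base, and 70.8% of its bases were G or C, against a median of 52.4% over 32851 promoters. The Htr1a stretch held 1 GC box, a motif found in 23.9% of all promoters over the same window. The Htr1b stretch held 2 CCAAT boxes, both read as ATTGG on the printed strand, and 33.8% of promoters held at least 1 in that window. No searched motif was in the Htr1f stretch, and neither TATAAA nor TGACGTCA was in any of the 4. These matches are descriptions of sequence only. No promoter was in the table for Htr3a.

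To ask how receptor levels differ between the juvenile and adult forebrain, P60 was compared with P25 over both genotypes, with genotype as a term (limma, 12 libraries, Benjamini-Hochberg adjustment over all genes tested). In this comparison, which was added after the data had been seen, 5 of the 10 receptor genes were called. Htr1f and Htr1b were higher at P60, and Htr3a, Htr1a and Htr6 were lower. The calls of Htr1b and Htr6 were lost under some alternatives, given with each gene below. Of all genes tested 37.6% were called in this comparison, 18.3% as higher and 19.3% as lower, so with 5 of 10 genes the receptors were not set apart from the background. An unadjusted p under 0.05 was reached by 7 of the 10 receptor genes and 46.8% of all genes. The receptors' median log2 difference was 0.01, and the median of all genes was 0.00. The groups of P25 and P60 libraries did not overlap for 3 receptor genes, Htr3a, Htr1a and Htr1f, against 19.6% of all genes. In bulk tissue, fewer cells of a type and less RNA per cell cannot be told apart. Whether mice of both ages were dissected and sequenced together is not stated. Age and any difference in processing therefore cannot be told apart either.

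**Figure D2:**
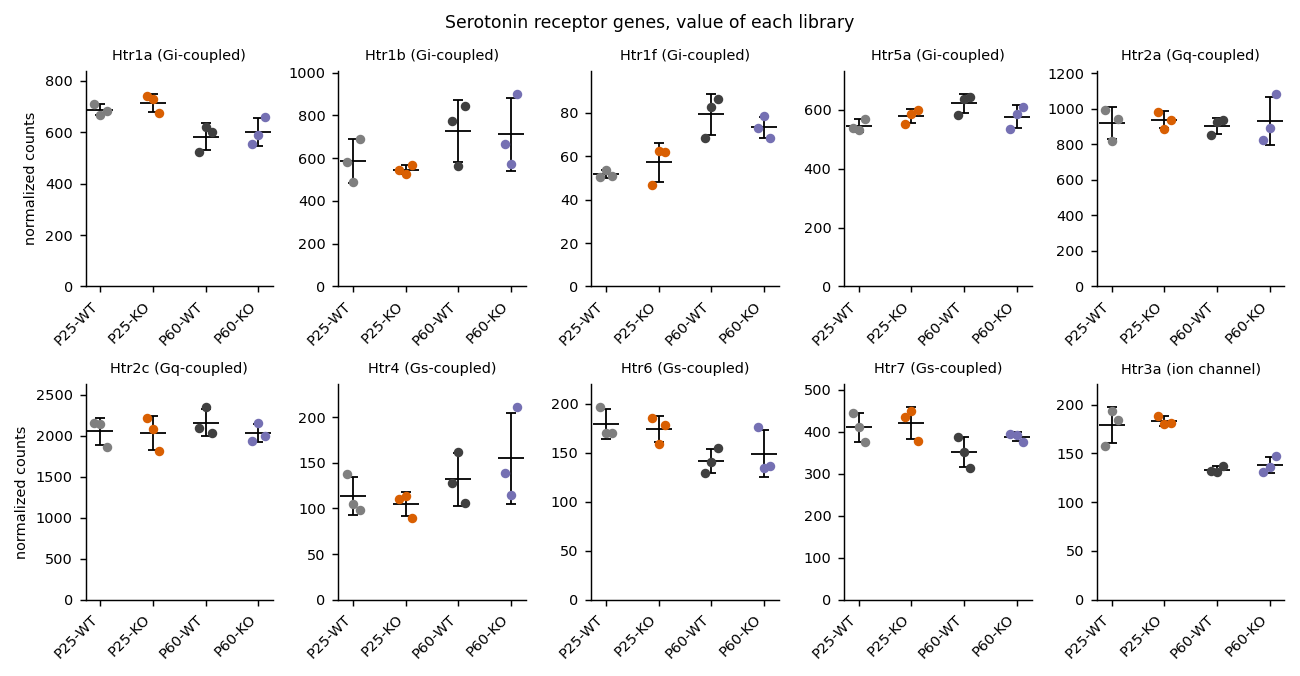
Normalized counts of each receptor gene (vertical axis from 0, a scale of its own per panel) in the 12 libraries by group, with points for libraries and bars for the mean ± SD. Htr3a and Htr1a are lower, and Htr1f higher, in every P60 library than in every P25 library.

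Htr1a (ENSMUSG00000021721, chr13:105443639-105448122, a gene of 1 exon) encodes the inhibitory receptor of raphe cell bodies and of hippocampal and cortical neurons. It had 711, 668 and 683 normalized counts in the P25-WT libraries and 739.7, 728 and 673 in the P25-KO libraries. It had 522, 622 and 600.2 in the P60-WT libraries and 553, 590.2 and 659 in the P60-KO libraries. All 6 adult libraries lay below all 6 juvenile libraries, whatever the genotype. The log2 difference was -0.25 ± 0.06 (SE; 95% interval -0.38 to -0.11; limma adjusted p = 0.00644), that is, an adult level 0.843 times the juvenile one.

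Htr1b (ENSMUSG00000049511, chr9:81628291-81633828) encodes the terminal receptor that limits transmitter release. The P25-WT libraries had 582, 488 and 692 normalized counts, and the P25-KO libraries 543, 526 and 567. The P60-WT libraries had 773, 565 and 842, and the P60-KO libraries 664, 571 and 901. In each adult group replicate 2 lay within the juvenile range and replicate 3 lay above it, so the ages overlapped. The log2 difference was 0.33 ± 0.12 (SE; 95% interval 0.07 to 0.59; limma adjusted p = 0.0416). The call was lost without the intensity trend (adjusted p = 0.0741) and on leaving out any library except P25-WT replicate 3, P60-KO replicate 2 and P60-WT replicate 2 (highest adjusted p = 0.101, without P60-KO replicate 3). Of the 31-base words of its transcripts, 18.2% also occur in another gene's, most of them in the antisense gene D430036J16Rik, and it is not stated whether strand was used, so its level is uncertain.

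Htr1f (ENSMUSG00000050783, chr16:64924729-65105854), the receptor targeted by some migraine drugs, was the least abundant gene of the set. It had 50.5, 53.7 and 50.8 normalized counts in the P25-WT libraries and 47.0, 62.6 and 62.1 in the P25-KO libraries. It had 68.5, 82.9 and 86.5 in the P60-WT libraries and 72.9, 78.4 and 68.5 in the P60-KO libraries. Every adult library was above every juvenile library. The log2 difference was 0.48 ± 0.12 (SE; 95% interval 0.23 to 0.74; limma adjusted p = 0.00608), or 1.40 times the juvenile level, which was the largest rise of the set.

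Htr5a (ENSMUSG00000039106, chr5:27842149-27855088), the other Gi-coupled member, had 546 ± 21.1 normalized counts in P25-WT, 579 ± 23.6 in P25-KO, 621 ± 32.8 in P60-WT and 577 ± 38.9 in P60-KO mice (SD, n = 3 each). It did not pass the test, with a log2 difference of 0.09 (95% interval -0.04 to 0.22; limma adjusted p = 0.267). In WT mice alone all 3 adult libraries lay above all 3 juvenile libraries, and 36% of all genes did not overlap there in either direction. In KO mice the ages overlapped. The genotype by age interaction, described below, was not called for Htr5a (limma unadjusted p = 0.124). The Gi-coupled receptors thus held calls in both directions.

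The Gq-coupled receptors gave no call. Htr2a (ENSMUSG00000034997, chr14:74640840-74709494) ranged from 817 to 992 normalized counts at P25 and from 824 to 1083 at P60. Its log2 difference was -0.02 (95% interval -0.17 to 0.13; limma adjusted p = 0.881). Htr2c (ENSMUSG00000041380, chrX:146962513-147197277) ranged from 1811 to 2213 at P25 and from 1934 to 2349.9 at P60, with a log2 difference of 0.04 (95% interval -0.10 to 0.17; limma adjusted p = 0.675). Neither interval reached the differences of Htr3a or Htr1f.

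Beside Htr2c, 9 of 15 markers of the choroid plexus were called between the ages, 8 higher and 1 lower at P60 (18.3% and 19.3% of all genes were), among them Kl by 0.62 and Prlr by 0.82 on the log2 scale. The summed level of the 15 markers was from 21894 to 25904 at P25 and from 24916 to 33010 at P60, and none was at 0 throughout. Ttr, the most abundant, differed by 0.20 (adjusted p = 0.103). The part of the choroid plexus in the level of Htr2c was not tested.

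Among the Gs-coupled receptors, Htr6 (ENSMUSG00000028747, chr4:139061108-139075570) fell. It had 197, 170.1 and 171 normalized counts in the P25-WT libraries and 185, 159 and 179 in the P25-KO libraries. It had 129.7, 141 and 154 in the P60-WT libraries and 177, 134 and 137 in the P60-KO libraries. Only P60-KO replicate 1 reached into the juvenile range. The log2 difference was -0.28 ± 0.09 (SE; 95% interval -0.49 to -0.08; limma adjusted p = 0.0285). The call was lost with libraries scaled to equal totals (adjusted p = 0.055) and on leaving out replicate 1 of P25-WT, replicate 1 of P60-WT, replicates 1 or 3 of P25-KO or replicates 2 or 3 of P60-KO (highest adjusted p = 0.0693, without P25-WT replicate 1).

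Htr7 (ENSMUSG00000024798, chr19:35958734-36057507), a receptor of thalamus, hypothalamus and hippocampus, had 410.0 ± 34.8 normalized counts in P25-WT, 421 ± 37.8 in P25-KO, 351 ± 36.6 in P60-WT and 388 ± 10.5 in P60-KO mice (SD, n = 3 each). Its log2 difference of -0.17 (95% interval -0.33 to -0.01) did not pass after adjustment (limma adjusted p = 0.0854), and it passed without P25-KO replicate 3 (adjusted p = 0.0439). Htr4 (ENSMUSG00000026322, chr18:62324204-62496577) was the most variable gene of the set, with a coefficient of variation of 26.6% over the 12 libraries. It had 138, 105 and 98.0 normalized counts in the P25-WT libraries and 128, 162 and 105 in the P60-WT libraries, against 111, 114 and 89.4 in the P25-KO and 139, 115 and 211 in the P60-KO libraries. P60-KO replicate 3 was the highest of all 12. The log2 difference of Htr4 was 0.36 (95% interval 0.02 to 0.70) and did not pass (limma adjusted p = 0.0854). It passed without P25-WT replicate 1 (adjusted p = 0.0442) or P60-WT replicate 3 (adjusted p = 0.045). Leaving out 1 library gave differences from 0.24 to 0.45, and over all alternatives the limma adjusted p reached 0.201.

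Htr3a (ENSMUSG00000032269, chr9:48899213-48911099), the channel subunit, marks interneurons of caudal ganglionic origin. It had 158, 194 and 185 normalized counts in the P25-WT libraries and 189, 180.1 and 181 in the P25-KO libraries. It had 132, 131 and 137 in the P60-WT libraries and 131, 137 and 147 in the P60-KO libraries. All adult libraries lay below all juvenile libraries. The log2 difference was -0.41 ± 0.08 (SE; 95% interval -0.58 to -0.24; limma adjusted p = 0.00113), or 0.753 times the juvenile level, which was the largest fall and the smallest adjusted p of the set. An antisense gene, Gm32335, overlaps it on the opposite strand, with no 31-base word in common.

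Markers of that interneuron class were read beside Htr3a, and the counts of this and the following lists stand against 18.3% of all genes called higher and 19.3% called lower. Of 13 such markers, 3 fell and none rose between P25 and P60, namely Npy by 0.52, Cck by 0.35 and Calb2 by 0.27 on the log2 scale. Of the 13 estimates 9 were negative and 4 positive. The positive ones, none of them called, were Ndnf (0.12), Adarb2 (0.10), Prox1 (0.08) and Lamp5 (0.01). Vip differed by -0.07 (adjusted p = 0.56). The summed level of the list was from 27568 to 29395 at P25 and from 24795 to 26459 at P60. Other cell type lists also moved with age: 9 of 10 oligodendrocyte markers and 6 of 15 glutamatergic neuron markers fell (1 of the latter rose), with summed levels from 412857 to 537727 and from 63215 to 66745 at P25, and from 203617 to 231021 and from 54419 to 56639 at P60. Of the astrocyte markers 6 of 10 fell, and of the microglia markers 4 of 10, with none higher in either list. Of 13 markers of striatal projection neurons 2 rose and 1 fell, of 10 of the thalamus 1 rose and 3 fell, and of 9 tested of the hypothalamus 1 rose and 1 fell. All 5 tested hindbrain and raphe markers, Tph2 and Slc6a4 among them, had positive estimates over both genotypes (median 0.29, none called), and within KO mice 2 of them were called, Slc6a5 with a log2 difference of 2.22 (adjusted p = 0.0342) and En2 with 0.66 (adjusted p = 0.0351). The part of these cell types in the receptor differences was not tested.

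**Figure D3:**
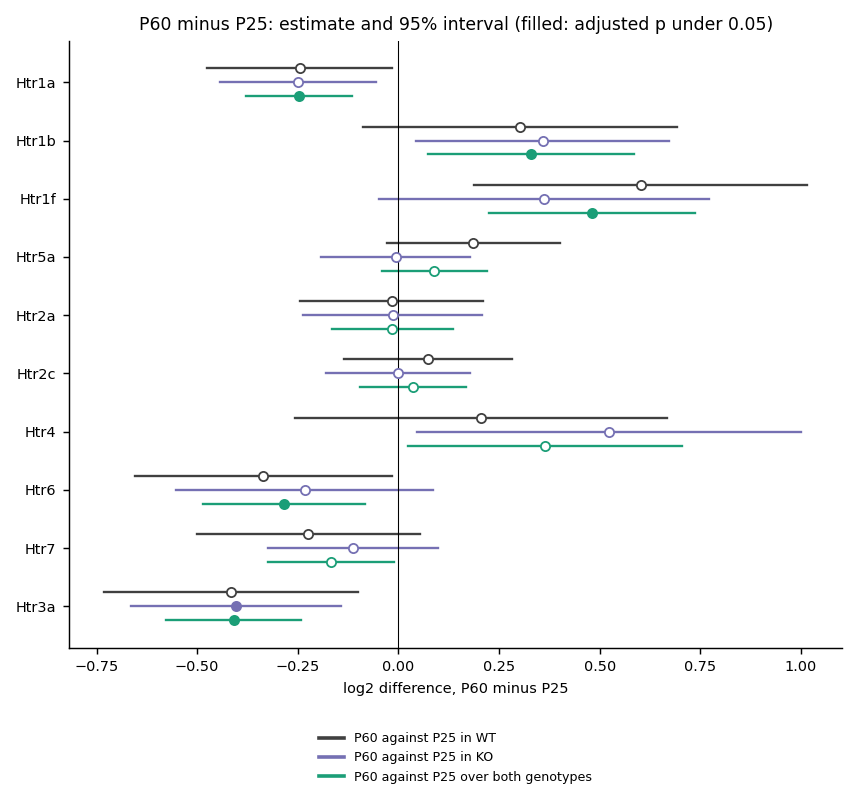
Log2 difference between P60 and P25 (horizontal axis) with its 95% interval for each receptor gene in WT mice, in KO mice and over both genotypes, filled where the adjusted p was under 0.05. The estimates over both genotypes run from -0.41 (Htr3a) to 0.48 (Htr1f).

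Within a genotype, with 3 libraries against 3, few of these differences passed. In WT mice limma called 0 of the 10 receptor genes, against 8.65% of all genes, and 4 had an unadjusted p under 0.05, against 28.9% of all genes. These were Htr1f with a log2 difference of 0.60 (adjusted p = 0.0714), Htr3a with -0.42 (adjusted p = 0.093), Htr1a with -0.24 (adjusted p = 0.152) and Htr6 with -0.34 (adjusted p = 0.155). The ages did not overlap for 5 receptor genes, these 4 and Htr5a, against 36% of all genes.

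In KO mice 1 of the 10 receptor genes was called, lower at P60, against 20.7% of all genes in either direction and 11.3% lower. An unadjusted p under 0.05 was reached by 4 receptor genes and 35.2% of all genes. This was Htr3a, with a log2 difference of -0.40 ± 0.12 (SE; limma adjusted p = 0.0362), and the call was lost on leaving out any 1 of the 6 KO libraries (adjusted p from 0.054 to 0.107) and with the replicate number as a block (adjusted p = 0.072). Htr1a had -0.25 (adjusted p = 0.069), Htr1b 0.36 (adjusted p = 0.0989), Htr4 0.52 (adjusted p = 0.111) and Htr1f 0.36 (adjusted p = 0.193). On leaving out P60-KO replicate 2, Htr1b (adjusted p = 0.0259) and Htr4 (adjusted p = 0.0425) were called, and without P60-KO replicate 3 Htr1a was (adjusted p = 0.0444). Without 1 library the difference ran from 0.18 to 0.50 for Htr1b, from 0.28 to 0.71 for Htr4 and from 0.23 to 0.43 for Htr1f. The ages did not overlap for 5 receptor genes, Htr1a, Htr1b, Htr1f, Htr3a and Htr4, against 39.4% of all genes. The comparisons within a genotype use the same libraries as the one over both genotypes.

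To ask whether the Shank3 deletion was accompanied by a change in serotonin receptors, KO mice were set against WT mice at P25, at P60 and with the ages together. Limma called 0 of the 10 receptor genes in each of these comparisons, and 0 of the 10 had an unadjusted p under 0.05. An unadjusted p under 0.05 was reached by 1.36% of all genes at P25, 2.5% at P60 and 2.05% over both ages. The background of calls in these fits was low, since Shank3 was the 1 gene called in each, which is 0.00571% of genes at P25, 0.00568% at P60 and 0.00568% over both ages. With DESeq2 the authors reported further genes, among them Ccdc40 at P25 and at P60. The calls here therefore do not show that no other gene differs. Over all genes, calls fell to 0 at P25 without the intensity trend, with the replicate block, or on leaving out P25-KO replicate 1 or 2, and at P60 to 0 without the trend. The KO and WT libraries overlapped for each of the 10 receptor genes in all of these comparisons, where 4.76%, 7.79% and 0.0739% of all genes did not overlap.

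At P25 the log2 difference between KO and WT mice ran from -0.11 for Htr4 to 0.13 for Htr1f, with a smallest unadjusted p of 0.375. Leaving out 1 library gave 0.063 to 0.27 for Htr1f, and other settings reached -0.36 for Htr4 and 0.21 for Htr3a. At P60 the log2 difference ran from -0.11 for Htr5a to 0.21 for Htr4, with a smallest unadjusted p of 0.171. Leaving out 1 library gave -0.15 to -0.053 for Htr5a. The median over the receptors was 0.03 at P25 and 0.04 at P60, where the median of all genes was -0.01 and 0.00. A p above the threshold does not show equal levels, so the intervals are given next.

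Over both ages, with 6 libraries against 6, the 95% interval was -0.08 to 0.18 for Htr1a, -0.32 to 0.19 for Htr1b, -0.24 to 0.27 for Htr1f and -0.14 to 0.12 for Htr5a on the log2 scale. It was -0.12 to 0.18 for Htr2a and -0.18 to 0.08 for Htr2c. The Gs-coupled receptors and the channel gave -0.29 to 0.39 for Htr4, -0.19 to 0.22 for Htr6, -0.06 to 0.25 for Htr7 and -0.12 to 0.21 for Htr3a. The widest bounds of any receptor as a ratio of KO to WT were 0.801 for Htr1b and 1.31 for Htr4, while Shank3 itself was at 0.491 (95% interval 0.451 to 0.534).

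**Figure D4:**
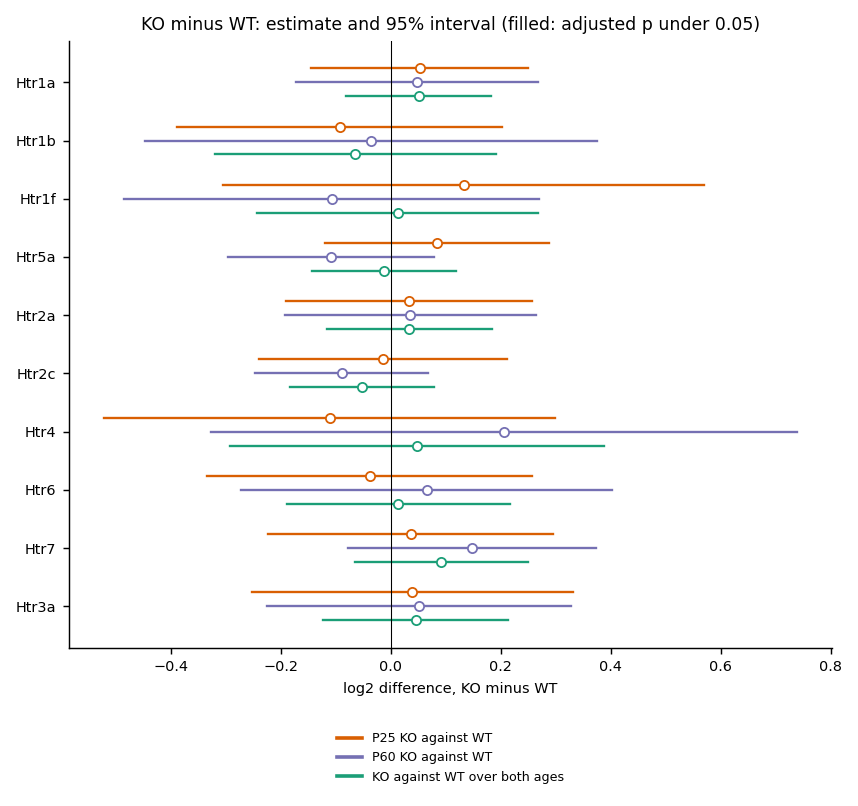
Log2 difference between KO and WT mice (horizontal axis) with its 95% interval for each receptor gene at P25, at P60 and over both ages, all hollow because no adjusted p was under 0.05. Every interval includes 0, and Htr4 at P60 has the widest one, up to a ratio of 1.67.

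The genotype by age interaction asks whether the genotype difference itself changed with age. Limma called 0 of the 10 receptor genes, and 0% of all genes, while 1.64% of all genes and 0 receptor genes had an unadjusted p under 0.05. The estimates ran from -0.24 for Htr1f to 0.32 for Htr4 on the log2 scale. On leaving out 1 library they were -0.37 to -0.17 for Htr1f and 0.071 to 0.51 for Htr4, and another setting gave 0.59 for Htr4. Htr5a had the smallest unadjusted p, 0.124, with a difference of -0.19 (95% interval -0.44 to 0.06).

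Of 4 other serotonin receptor genes, Htr1d, Htr2b and Htr5b were in the table and Htr3b was not analysed here. Htr1d had 96.0 ± 24.7 normalized counts in P25-WT, 98.2 ± 13.3 in P25-KO, 83.2 ± 6.37 in P60-WT and 86.4 ± 7.46 in P60-KO mice (SD, n = 3 each). Htr5b had means of 58.3, 63.0, 54.4 and 56.8 in the same order, with a lowest library of 40.5. Htr2b lay from 1.95 to 15.7 and fell below the mean of 10 needed for the test. Per kilobase of mean coding transcript length, Htr1d was at 36.0 and Htr5b at 30.1, and Htr1f was at 25.3, with ranges over libraries that overlapped (27.5 to 46.9, 20.9 to 38.7 and 18.2 to 33.5). Neither Htr1d nor Htr5b passed in any comparison.

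Genes of serotonin synthesis, transport and breakdown came from a list of 14, of which 13 were tested over the 12 libraries (Slc18a1 had a mean of 7.73). Between P25 and P60, 3 rose and 2 fell, where 18.3% and 19.3% of all genes did, so the list was not set apart from the background. Those that rose were Maob, a monoamine oxidase, by 0.29 on the log2 scale (limma adjusted p = 0.000953), Aldh2, the aldehyde dehydrogenase that acts on its product, by 0.20 (adjusted p = 0.00165), and Qdpr, which regenerates the cofactor of tryptophan hydroxylase, by 0.33 (adjusted p = 0.0132).

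Maob was from 565 to 601 normalized counts at P25 and from 651 to 811 at P60, without overlap. Both genes that fell encode low-affinity uptake carriers: Slc29a4 changed by -0.29 (adjusted p = 0.0146) and Slc22a3 by -0.38 (adjusted p = 0.024). The other breakdown enzyme, Maoa, had a log2 difference of 0.00 (adjusted p = 0.992). Ddc (-0.08), Gch1 (0.01), Pts (-0.14), Slc18a2 (0.16), Tph1 (0.30), Tph2 (0.23) and the high-affinity transporter Slc6a4 (0.24) did not pass. Within KO mice Qdpr, Slc29a4 and Aldh2 passed, where 20.7% of all genes did, and within WT mice 0 of the tested genes passed, where 8.65% of all genes did. The WT and KO estimates were -0.30 and -0.27 for Slc29a4, 0.23 and 0.18 for Aldh2 and 0.19 and 0.46 for Qdpr, and no interaction was called (limma adjusted p = 1 for each).

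Among transcripts of raphe neurons, P25-KO had the largest spread between its libraries. Tph2, the neuronal tryptophan hydroxylase, had 232, 181 and 110.1 normalized counts in the P25-KO libraries and 237, 249 and 211 in the P25-WT libraries. Slc6a4 had 192, 143 and 48.6 in the P25-KO libraries and 158, 116 and 186 in the P25-WT libraries. Replicate 3 of P25-KO was the lowest of all 12 libraries for both of these genes. At P60, Tph2 was at 232 ± 26.3 in WT and 232 ± 37.1 in KO mice, and Slc6a4 at 145 ± 14.8 in WT and 161 ± 26.2 in KO mice (SD, n = 3 each).

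No gene of the synthesis, transport and breakdown list was called between KO and WT mice. Of the 13 tested over both ages, 12 had a negative estimate, that is, lower in KO mice, against 9254 of 17594 genes in all, and 2 had an unadjusted p under 0.05, as 2.05% of all genes did. By age, 12 of 13 estimates were negative at P25, against 9356 of 17515 genes, and 8 of 13 at P60, against 8794 of 17610. At P25 all 6 tested markers of the hindbrain and raphe, of which Tph2 and Slc6a4 are also in the list, had negative estimates (median -0.46, none called), with summed levels from 531 to 830 in WT and from 286 to 752 in KO libraries. The 10 oligodendrocyte markers were also all negative (median -0.16, none called), with summed levels from 455910.0 to 537727 in WT and from 412857 to 488215 in KO libraries. Of the microglia markers 9 of 10 were negative at P25 (median -0.16, none called), with summed levels from 9487 to 11240.1 in WT and from 8771 to 10755 in KO libraries, and of the astrocyte markers 8 of 10 (median -0.02). Over both ages 9 of 10 microglia markers, 10 of 10 oligodendrocyte markers, 12 of 15 choroid plexus markers and 5 of 5 tested hindbrain and raphe markers were negative, none of them called. Replicate 3 of P25-KO was the lowest of all 12 libraries for Ddc (408) and Slc18a2 (341) as well. The part of these tissues and of that library in the counts was not tested. Tph1, the peripheral and pineal tryptophan hydroxylase, was at 15.4, 15.2 and 15.4 normalized counts in P25-WT and at 9.46, 4.05 and 4.02 in P25-KO libraries, without overlap. At P60 the libraries overlapped, with 8.66, 14.8 and 13.2 in P60-WT and 11.6, 9.21 and 13.2 in P60-KO mice. Its log2 difference was -1.35 ± 0.42 at P25, -0.08 ± 0.36 at P60 and -0.71 ± 0.30 over both ages (SE; limma adjusted p = 1 in each), at a level near the filter. The interaction was 1.27 ± 0.53 (SE; limma unadjusted p = 0.0314, adjusted p = 1). Gch1, which makes the tetrahydrobiopterin cofactor, had a log2 difference between KO and WT mice of -0.25 ± 0.11 over both ages (SE; limma adjusted p = 1).

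**Figure D5:**
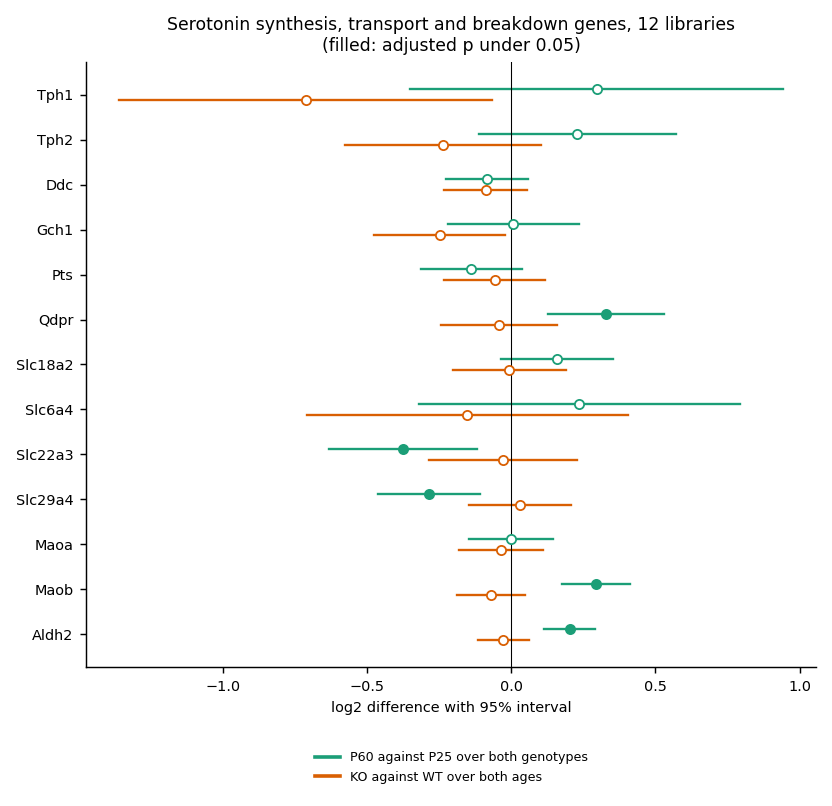
Log2 differences (horizontal axis) with 95% intervals for the genes of serotonin synthesis, transport and breakdown, for P60 against P25 over both genotypes and for KO against WT over both ages, filled where the adjusted p was under 0.05. Maob, Aldh2 and Qdpr lie above 0 and Slc29a4 and Slc22a3 below 0 between ages, and no gene is filled between genotypes.

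Genes that couple the receptors to their effectors moved with age in both directions. Of 38 tested, 9 rose and 9 fell between P25 and P60, against 18.3% and 19.3% of all genes. Itpr1, the calcium release channel downstream of Gq, rose by 0.56 and Adcy1, a calcium-stimulated adenylyl cyclase, by 0.42 on the log2 scale. Kcnj6, a subunit of the potassium channel opened by Gi-coupled receptors, rose by 0.53, and the protein kinase C gene Prkca by 0.36. Prkaca, the catalytic subunit of protein kinase A, fell by 0.29. In WT mice 4 rose and 2 fell, against 3.66% and 4.99% of all genes, and in KO mice 8 rose and 7 fell, against 9.37% and 11.3%. Between KO and WT mice 0 of the coupling genes were called at either age or over both.

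Of 27 regulators and binding partners, 6 rose and 6 fell with age, close to the 18.3% and 19.3% of all genes. Fyn fell by 0.55, Deaf1, a transcription factor that binds the Htr1a promoter, by 0.51, Rgs4, which speeds Gi inactivation, by 0.37, and Dlg4, which binds the tail of Htr2a and Htr2c, by 0.36. Grk3, a receptor kinase, rose by 0.31. Adar and Adarb1, the enzymes that edit Htr2c RNA, were singled out after their values were seen and rose by 0.29 (adjusted p = 0.00102) and 0.19 (adjusted p = 0.00123). None of the 27 was called between KO and WT mice.

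To describe how receptors vary between mice of one age, each gene's log2 values were centred within each age over the 12 libraries, and the genes of most similar pattern were looked up among 17593. These correlations are the highest of a large search over few libraries, and are given as a description. Htr1b was most like Mfap3 (Pearson's r 0.96, Spearman's rho 0.94) and Lats2, a kinase of the Hippo pathway (0.95 and 0.97). Htr1f was most like Stil (0.93 and 0.93) and Lpl, lipoprotein lipase (0.90 and 0.88). Htr2c was most like Cdkn3 (0.93 and 0.93) and Tmem237, a cilium protein (0.93 and 0.92).

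For Htr2a the gene named is Trappc10 (0.91 and 0.93), part of a vesicle tethering complex. For Htr4 they were Gpatch11 (0.90 and 0.88) and Fam217b (0.87 and 0.85), and for Htr5a the Golgi protein Cog5 (0.89 and 0.90) and Dnase1l1 (0.89 and 0.88). For Htr6 they were Uimc1, a DNA repair protein (0.89 and 0.92), and Rhoq (0.84 and 0.71), and for Htr3a Zfp563 (0.88 and 0.70) and Efcab7 (0.87 and 0.82). Htr7 was nearest to Cox4i2, an isoform of a cytochrome oxidase subunit (0.88 and 0.87), and Edem2 (0.85 and 0.80), and Htr1a to the nuclear receptor Nr2c2 (0.87 and 0.83) and Tnfrsf10b (0.87 and 0.91). Among the receptors themselves, Pearson's r over the same centred values was from -0.63 between Htr5a and Htr7 to 0.76 between Htr1a and Htr2a.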

How the data were processed

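RNA was sequenced from 12 forebrains, 3 per group, and groups and replicate numbers came from the sample titles. The authors quantified transcripts with Salmon 1.1.0 with a GC bias correction, imported them with tximport and normalized them with DESeq2 (version 1.26.0 with R 3.6.2 in the submitters' processing notes). The values the authors deposited are signal, that is, normalized counts, not whole reads. Depth is therefore unknown, no count model was fitted, and precision is limited by 3 libraries per group. The transcriptome and the use of strand are not given in the sources used here.

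The values were moved to log2(value + 1), a scale that understates changes of low genes, and linear models were fitted by limma 3.58.1 (R 4.3.3) with moderated variances that follow expression level. A gene entered a fit where its mean there reached 10, and a call was a p under 0.05 after Benjamini-Hochberg adjustment over all genes fitted. Intervals are 95% intervals of the fit. The fits were tested on simulated data. Symbols, lengths and positions came from GENCODE M21 (GRCm38), which held 19252 of the identifiers.

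The receptor genes and all gene lists were chosen with earlier results of these data known. The named genes were the receptors, Shank3, the synthesis, transport and breakdown list, up to 5 called genes of each other list and comparison with the smallest adjusted p, and the 2 genes most correlated with each receptor. Cell type markers and the RNA editing enzymes were named as context outside this rule, chosen after their values were seen. Some items that this rule covers are not reported here. The comparison of ages over both genotypes was added after the data had been seen. Alternatives changed the pseudocount, the filter, the scaling, the variance model, the libraries in the fit or the weights, or added the replicate block.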

Additional observations from a re-analysis of the deposited data

How the results depend on the processing

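Over 1200 receptor values under alternatives, 1066 kept their direction and their side of the threshold, 24 lost a call, 18 gained one and 92 changed sign. Across all 20 alternatives of the age comparison over both genotypes, Htr3a (adjusted p from 0.000453 to 0.00341), Htr1a (0.00127 to 0.0192) and Htr1f (0.00265 to 0.0181) stayed called. The number of receptor genes called there was 3 to 5 on leaving out a library, and it was 3 on leaving out replicate 1 of P25-KO, replicate 3 of P60-KO or replicate 1 of P60-WT. In WT mice the number went from 0 to 7 with sample weights and to 2 in one fit of all 12 libraries (Htr1f and Htr3a). In KO mice it went from 1 to 2 with sample weights, to 0 with the replicate block, and was 0 to 2 on leaving out a library, where the called genes were not those of the full set: Htr1b and Htr4 without P60-KO replicate 2, and Htr1a without P60-KO replicate 3. Htr7 was called over both genotypes with sample weights (adjusted p = 0.0484) and with the replicate block (0.0431). Sample weights did not converge for 3 of the 7 comparisons, P25 KO against WT, P60 against P25 in WT and the interaction, so their values there are uncertain. The causes of these changes were not tested.

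Libraries scaled to equal totals moved the median log2 difference of all genes between ages from 0.00 to 0.05 and the calls from 3219 higher and 3397 lower to 4038 and 2730, in WT mice from 644 and 877 to 991 and 681, and in KO mice from 1649 and 1992 to 2108 and 1620. In WT mice the calls over all genes fell to 18 higher and 104 lower without P60-WT replicate 3, to 60 and 132 without the trend, and rose to 4106 and 4144 with sample weights. In KO mice they were 728 and 997 without the trend. Between KO and WT mice at P25, where 1 gene was called, sample weights gave 29 higher and 28 lower, and leaving out a library gave from 0 (P25-KO replicate 1 or 2) to 7 higher and 1 lower (P25-WT replicate 1). At P60 the calls ran from 0 without the trend to 1 higher and 2 lower without P60-KO replicate 1. Same-numbered libraries correlated from -0.0719 to 0.166 and not every pair of a comparison exceeded 0.1, so the numbers were not taken as pairs, and the block changed no receptor call beyond those named.

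Every value that changed sign was uncalled in its comparison. With sample weights the log2 difference between KO and WT mice at P25 was -0.072 for Htr2a and -0.062 for Htr7. With sample weights the log2 difference between KO and WT mice at P60 was -0.0011 for Htr2a. With sample weights the log2 difference between KO and WT mice over both ages was -0.0093 for Htr2a, -0.0045 for Htr4 and -0.0014 for Htr6. With sample weights the log2 difference between ages in WT mice was -0.017 for Htr2c and -0.13 for Htr4. With sample weights the log2 difference for the interaction was 0.022 for Htr1a, -0.034 for Htr1b and -0.19 for Htr3a. With equal totals the log2 difference between ages in WT mice was 0.034 for Htr2a. With equal totals the log2 difference between ages in KO mice was 0.020 for Htr2a, 0.033 for Htr2c and 0.028 for Htr5a. With equal totals the log2 difference between ages over both genotypes was 0.027 for Htr2a. With equal totals the log2 difference for the interaction was -0.014 for Htr2a and -0.0042 for Htr3a.

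Leaving out 1 library gave the following ranges of the log2 difference for receptors whose sign changed. Between KO and WT mice at P25 they were -0.22 to 0.032 for Htr1b, -0.048 to 0.092 for Htr2a, -0.083 to 0.068 for Htr2c, -0.047 to 0.10 for Htr3a, -0.21 to 0.034 for Htr4, -0.083 to 0.031 for Htr6 and -0.026 to 0.11 for Htr7. Between KO and WT mice at P60 they were -0.027 to 0.11 for Htr1a, -0.22 to 0.11 for Htr1b, -0.078 to 0.12 for Htr2a, -0.040 to 0.40 for Htr4 and -0.062 to 0.14 for Htr6. Between KO and WT mice over both ages they were -0.032 to 0.059 for Htr1f, -0.016 to 0.071 for Htr2a, -0.080 to 0.13 for Htr4, -0.033 to 0.023 for Htr5a and -0.049 to 0.050 for Htr6. Between ages in WT mice they were -0.098 to 0.042 for Htr2a. Between ages in KO mice they were -0.13 to 0.070 for Htr2a, -0.084 to 0.061 for Htr2c and -0.047 to 0.048 for Htr5a. Between ages over both genotypes they were -0.066 to 0.022 for Htr2a. For the interaction they were -0.080 to 0.053 for Htr1a, -0.13 to 0.20 for Htr1b, -0.11 to 0.086 for Htr2a, -0.049 to 0.098 for Htr3a and -0.025 to 0.17 for Htr6.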

Other observations

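Libraries of a group differed in how many receptor genes they were highest for. P25-WT replicate 1, P60-WT replicate 3 and P60-KO replicate 3 were each the highest of their group for 6 of the 10 receptor genes, against 23.3%, 32.5% and 35.4% of all genes. Slc6a5, a glycine transporter of the hindbrain, ranged from 29.9 to 266 normalized counts at P25 and from 104 to 557 at P60, with its lowest value in P25-KO replicate 3.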
